A study of Homo sapiens with 33 samples.

Results

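MSTO-211H is an established human line of malignant pleural mesothelioma (MPM), a tumour of the lining of the lung. It was cultured with 0.1% DMSO, the solvent, or with 1 µM palbociclib, an inhibitor of the cyclin-dependent kinases CDK4 and CDK6, and total RNA was sequenced. There were 3 DMSO and 3 palbociclib libraries, chosen by their column labels, out of 33 libraries from 6 lines in all. Each palbociclib library was paired with the DMSO library of the same replicate number, and each pair came from a separate experiment. The treatment lasted 9 days in pairs 1 and 2 and 10 days in pair 3, so a difference of pair 3 from the others cannot be told apart from the extra day. The response was set against that of the 3 other MPM lines that the study classed as sensitive to the drug, H2052 (2 pairs), H2452 (3 pairs) and H28 (3 pairs), which together hold 16 libraries given the same agents at the same concentrations. Each line stands for 1 tumour.

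Palbociclib acts at the restriction point of the cell cycle. Cyclin D bound to CDK4 or CDK6 phosphorylates the retinoblastoma protein (pRb), which then releases E2F transcription factors. Released E2F switches on the genes that load and run the replication forks, while genes of mitosis are kept silent until later in the cycle by the DREAM complex, which contains the pRb relatives p107 and p130 and binds a promoter element called the cell cycle genes homology region (CHR). A CDK4/6 inhibitor is therefore known to lower both groups in cells that still have pRb.

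The values are counts scaled to 20000000 reads per library (CP20M), with a total of 20014403 to 20021400 in each of the 6 libraries. The steps between low values gave a depth of 14800000 to 17420000 reads for 4 of the 6. As markers of its origin, MSTO-211H held mesothelin (MSLN) at 449 to 1113 CP20M and WT1 at 165 to 292, whereas 7 of 14 mesothelial markers stayed under 100 in all 6 libraries and calretinin (CALB2) ranged from 10 to 350. Of 6 leukocyte markers 5 stayed under 100 in all 6 libraries, among them PTPRC at 0 to 6, while CD68 reached 1222. Of 6 endothelial markers 5 stayed under 100, among them CDH5 at 0 to 2, while KDR reached 269.

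Palbociclib changed 3325 of 14403 genes tested in MSTO-211H by more than 1.5-fold at a false discovery rate (FDR) under 0.05 (limma, with the pair as a block). Of these, 1338 rose, 9.29% of those tested, and 1987 fell, 13.8%. The palbociclib libraries were all above the DMSO libraries for 2237 genes (15.5%) and all below for 3865 (26.8%). Without pair 3, 703 genes rose and 840 fell, beside 1584 and 1860 without pair 1 and 1093 and 1621 without pair 2. The balance between rises and falls depended on the scaling. With the deposited totals 40.2% of the called genes were higher, and with median-of-ratios scaling 62.5% were (1999 higher and 1201 lower), the median of all genes moving from -0.13 to 0.03 on the log2 scale. Fold changes are given throughout as log2 values of CP20M + 10, and a difference as the fold change of MSTO-211H minus the mean fold change of the 3 other lines. The value after ± is the moderated standard error (SE) of limma, in which each gene's spread is drawn towards that of all genes. It comes from the fit of the 3 MSTO-211H pairs for a fold change and from the joint fit of 11 pairs for a difference.

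Mitotic genes fell in MSTO-211H while many genes of the replication fork did not. In each of the other lines, too, the replication list fell less than the mitotic list. Of 26 mitotic genes 24 fell, with a median of -2.12, and 2 were not called, AURKA (-0.98) and the centromeric histone CENPA (-0.54). The proliferation marker MKI67 had 3355, 1555 and 5593 CP20M with DMSO in pairs 1, 2 and 3 and 1265, 171 and 777 with palbociclib, a fall of -2.45 ± 0.32 (adjusted p = 0.00787). All 3 palbociclib libraries lay below all 3 DMSO libraries. The anaphase activator CDC20 went from 1088, 952 and 2321 CP20M to 644, 86 and 391, again without overlap, and the mitotic kinase PLK1 from 848, 778 and 2004 to 515, 69 and 259. Pair 1 moved least. The list's median was -0.79 in pair 1, -2.76 in pair 2 and -2.48 in pair 3, and without pair 2 only 8 of the 26 were called.

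The replication licensing and fork genes had a median of -0.51 in MSTO-211H, and 11 of 26 fell. The members that fell included PRIM1 (-2.10), a primase subunit, RRM2 (-2.06), which supplies deoxynucleotides, MCM10 (-1.86), ORC1 (-1.65) and CDC45 (-1.50). The core of the replicative helicase behaved otherwise. MCM2 stood at 1800, 1244 and 2846 CP20M with DMSO and at 1966, 2332 and 1866 with palbociclib (0.14 ± 0.27). MCM3 stood at 1749, 1123 and 2500 with DMSO and at 2080, 2475 and 1885 with palbociclib (0.33 ± 0.28). MCM6 stood at 1738, 1220 and 2234 with DMSO and at 2271, 1614 and 1700 with palbociclib (0.13 ± 0.18). For these 3 genes the libraries of both conditions overlapped, whereas MCM7, another subunit of the same ring, fell by 0.91 ± 0.26, a call lost with median-of-ratios scaling and without the pair as a block. In pairs 1 and 2 the medians of the list were -0.18 and -0.11, and in pair 3 it was -1.18. The count of falls was 4 without the pair as a block, 6 with median-of-ratios scaling, 2 without pair 2 and 3 without pair 3.

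Against the other lines, 12 of the 26 replication genes and 2 of the 26 mitotic genes were higher in the difference, where 8.85% of all genes tested were. Among the 12 were the helicase subunits MCM2, MCM3, MCM4, MCM5 and MCM6, the helicase cofactors GINS1, GINS2 and GINS3, the polymerase subunit POLE, the flap nuclease FEN1 and the nucleotide synthesis enzyme TYMS. The median difference was 0.85 for the replication list and 0.60 for the mitotic list, beside 0.04 for all genes. The median fold change of the replication list was -1.02 in H2052, -1.66 in H2452 and -1.09 in H28. That of the mitotic list was -2.11, -3.57 and -1.79 in the same lines. GINS2 had the largest difference of the 12, 1.67 ± 0.32 (adjusted p = 0.00397). It went from 168, 97 and 246 CP20M to 150, 100 and 102 in MSTO-211H, whereas in H28 it went from 552, 409 and 494 to 99, 151 and 66 and its fold change was -1.68 in H2052 and -2.49 in H2452. The flap nuclease FEN1 went from 668, 298 and 882 to 1014, 457 and 623 in MSTO-211H, and in H2452 from 1461, 947 and 1670 to 432, 461 and 387, with fold changes of -0.69 in H2052 and -1.03 in H28. MCM6 (1.17 ± 0.16) was the only member of the list past the FDR against each of the 3 lines singly. Without the pair as a block 7 replication genes and 0 mitotic genes were higher in the limma fit, and the mitotic count was also 0 without pair 1, with 2 of the 26 at an unadjusted p under 0.05 in each case.

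The DMSO levels of both lists lay lower in MSTO-211H, with ranges that overlapped those of the other lines. The median CP20M over the replication list was 378 to 943 in the DMSO libraries of MSTO-211H and 754.5 to 1548.5 in those of the other lines, while with palbociclib it was 287 to 501.5 and 197.5 to 725.5. For the mitotic list the DMSO libraries of MSTO-211H held 457 to 1059, those of the other lines 933.5 to 1781. With palbociclib the ranges were 68.5 to 281 and 98 to 565.5. The smaller fall of the replication list in MSTO-211H thus went with a lower starting level, and the part of that level in the difference was not tested.

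**Figure D1:**
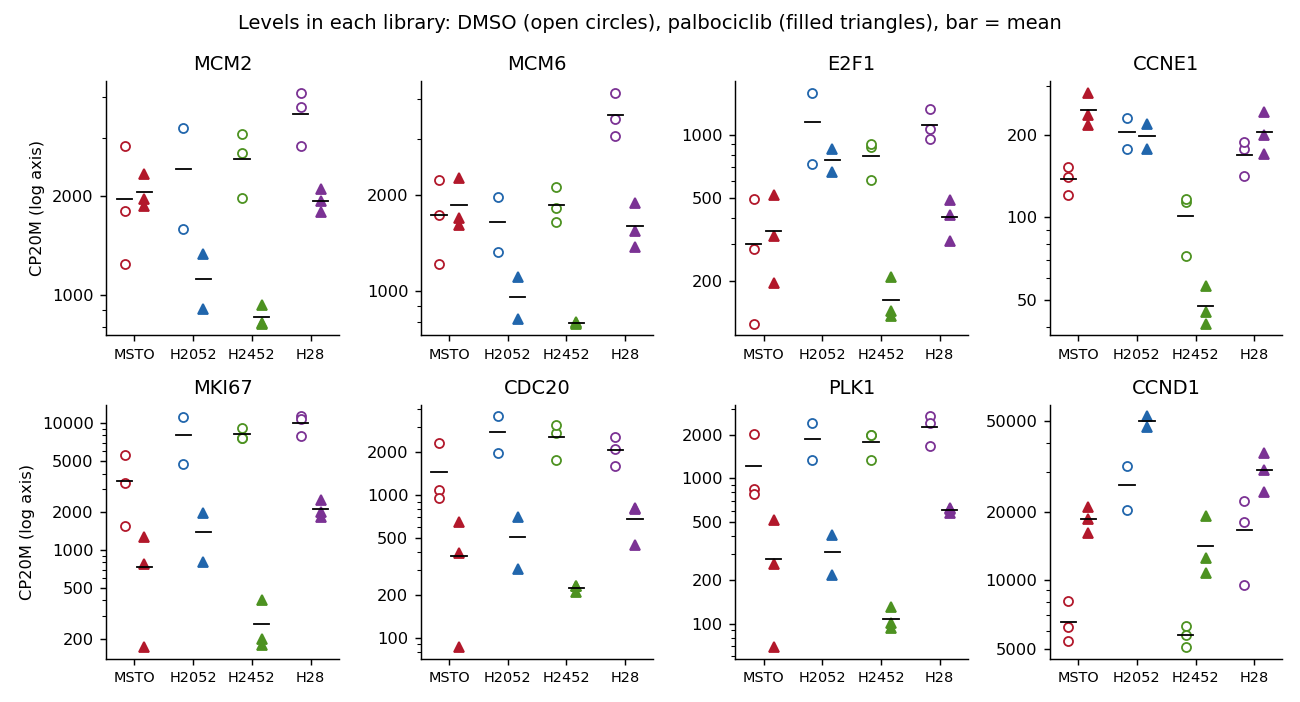
Levels of 8 cell cycle genes in every library of the 4 sensitive lines, in CP20M on a log axis (open circles DMSO, filled triangles palbociclib, bars the mean of a line and condition). For MCM2 and MCM6 the conditions overlap in MSTO-211H and in no other line, and MKI67, CDC20 and PLK1 are lower with palbociclib, without overlap, in all 4 lines.

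The promoters of both lists were read for the letters of the elements named above, as a description. More of the replication genes than of the mitotic genes were higher in the difference, but the median differences, 0.85 and 0.60, lay closer. Whether these elements have a part in the response was not tested. Windows from 250 bases before to 50 bases after the start of transcription were taken from RefSeq (GRCh38.p14), and 22 genes of each list had one. An E2F site was searched as TTTCCCGC or TTTGGCGC and a CHR as TTTGAA or TTCGAA, on both strands. E2F letters stood in 13 of 22 replication genes (59.1%) and 1 of 22 mitotic genes (4.55%), beside 2.75% of all 27305 genes with a window. CHR letters stood in 17 of 22 mitotic genes (77.3%) and 2 of 22 replication genes (9.09%), beside 19.5% of all genes. CCAAT, the box of the factor NF-Y, was found in 77.3% and 68.2% of the mitotic and replication genes and in 39.7% of all genes. Among genes tested in the joint fit that had a window, the shares were 4.41% for E2F, 15.5% for CHR and 42.9% for CCAAT. The mitotic share of E2F letters was thus near that of the tested genes. Among the replication genes, E2F letters stood in 7 of the 9 with a window that were higher in the difference and in 6 of the 13 that were not. MCM2 and FEN1, both higher in the difference, held none in their windows. The windows of MCM3, MCM6 and GINS2 are shown as members of the list that were not called in MSTO-211H, with the E2F letters (or their complement) in capitals.
MCM3 (chr6:52284693-52284992, minus strand): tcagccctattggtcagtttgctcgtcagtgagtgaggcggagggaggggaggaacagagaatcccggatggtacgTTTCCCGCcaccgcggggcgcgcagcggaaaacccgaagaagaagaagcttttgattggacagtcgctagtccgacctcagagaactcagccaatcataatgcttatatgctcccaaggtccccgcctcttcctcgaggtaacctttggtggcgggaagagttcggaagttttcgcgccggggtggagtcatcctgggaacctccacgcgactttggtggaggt
MCM6 (chr2:135876394-135876693, minus strand): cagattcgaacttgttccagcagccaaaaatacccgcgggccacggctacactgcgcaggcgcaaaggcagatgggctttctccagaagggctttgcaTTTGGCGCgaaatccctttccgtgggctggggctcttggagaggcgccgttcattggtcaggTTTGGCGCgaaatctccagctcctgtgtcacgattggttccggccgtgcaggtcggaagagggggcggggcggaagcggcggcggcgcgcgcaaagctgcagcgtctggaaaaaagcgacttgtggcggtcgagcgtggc
GINS2 (chr16:85688905-85689204, minus strand): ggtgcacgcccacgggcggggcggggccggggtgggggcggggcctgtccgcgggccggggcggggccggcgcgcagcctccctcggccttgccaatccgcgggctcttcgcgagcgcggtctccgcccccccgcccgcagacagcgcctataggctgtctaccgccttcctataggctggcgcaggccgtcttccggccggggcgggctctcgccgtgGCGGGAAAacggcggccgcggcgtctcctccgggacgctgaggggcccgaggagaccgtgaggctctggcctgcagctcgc

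The windows of CDC20, CCNB2 and PLK1 are shown as mitotic genes that fell, with the CHR letters (or their complement) in capitals. CCAAT boxes are left in lower case.
CDC20 (chr1:43358731-43359030, plus strand): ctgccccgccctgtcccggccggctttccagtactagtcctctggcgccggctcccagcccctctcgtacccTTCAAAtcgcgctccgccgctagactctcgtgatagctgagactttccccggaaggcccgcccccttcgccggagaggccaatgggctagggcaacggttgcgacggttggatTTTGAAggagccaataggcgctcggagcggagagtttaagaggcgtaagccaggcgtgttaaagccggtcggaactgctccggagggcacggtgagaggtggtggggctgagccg
CCNB2 (chr15:59104896-59105195, plus strand): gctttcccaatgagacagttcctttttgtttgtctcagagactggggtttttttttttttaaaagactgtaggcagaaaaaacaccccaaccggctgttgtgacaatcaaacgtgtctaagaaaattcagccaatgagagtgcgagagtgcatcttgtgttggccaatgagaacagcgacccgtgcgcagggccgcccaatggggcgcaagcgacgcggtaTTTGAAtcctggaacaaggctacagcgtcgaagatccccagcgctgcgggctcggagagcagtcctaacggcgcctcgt
PLK1 (chr16:23678639-23678938, plus strand): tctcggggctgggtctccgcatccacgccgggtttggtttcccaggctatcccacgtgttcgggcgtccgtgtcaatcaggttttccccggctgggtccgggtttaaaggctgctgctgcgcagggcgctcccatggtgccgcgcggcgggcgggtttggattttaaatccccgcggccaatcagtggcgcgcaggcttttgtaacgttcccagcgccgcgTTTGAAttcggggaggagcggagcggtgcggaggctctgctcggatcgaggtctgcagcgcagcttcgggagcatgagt
All 3 genes fell by similar amounts in MSTO-211H, CDC20 by 2.20 ± 0.45, CCNB2 by 2.16 ± 0.31 and PLK1 by 2.31 ± 0.48, and none differed from the other lines at the FDR. The match of letters is a description of the windows and not evidence of binding in these cells.

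Among the E2F factors themselves, E2F1, E2F2 and E2F8 were higher in the difference. E2F1, an activator and itself an E2F target, went from 283, 125 and 495 CP20M to 515, 196 and 327 in MSTO-211H (0.29 ± 0.29, not called), and its difference was 1.68 ± 0.32 (adjusted p = 0.00407). E2F2 stood at 93, 37 and 103 with DMSO and at 44, 50 and 35 with palbociclib, and in H2452 it went from 366, 333 and 396 to 8, 14 and 5, with fold changes of -2.69 in H2052 and -2.00 in H28. Its difference of 2.37 ± 0.32 was past the FDR against each line. The repressors E2F7 (-1.27) and E2F8 (-1.68) both fell in MSTO-211H.

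The partners of the drug's targets rose. Cyclin D1 (CCND1) went from 6193, 5378 and 8101 CP20M to 18467, 16184 and 20929, a rise of 1.51 ± 0.11 (adjusted p = 0.0034). In the other lines the fold change of CCND1 was 0.97, 1.27 and 0.94, and its difference of 0.45 ± 0.18 was not called. Cyclin D2 (CCND2) rose by 2.51 ± 0.27. Cyclin D3 (CCND3) rose in MSTO-211H, from 866, 390 and 773 CP20M to 2446, 1053 and 1935 (1.40 ± 0.11), whereas its fold change was -0.09 in H2052, -0.37 in H2452 and 0.55 in H28. Its difference of 1.37 ± 0.20 was past the FDR against each line, and its MSTO-211H libraries did not overlap. Cyclin E1 (CCNE1), the partner of CDK2, rose from 153, 140 and 121 to 285, 217 and 236 (0.79 ± 0.16), with a difference of 1.03 ± 0.21. CDK2 and its activating phosphatase CDC25A were not called in MSTO-211H (-0.11 and -0.03) but were higher in the difference, by 1.33 ± 0.27 and 1.84 ± 0.35.

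Of 16 tested cyclins, CDKs and inhibitors, 4 rose and 5 fell. The falls were cyclin A2 (CCNA2, -2.02), p18 (CDKN2C, -2.48), p27 (CDKN1B, -1.01), p57 (CDKN1C, -1.41) and p130 (RBL2, -0.80). RBL2 was also lower in the difference (-0.61 ± 0.12), going from 4301, 5142 and 4607 CP20M to 2148, 3478 and 2578 in MSTO-211H. RB1 itself (0.08 ± 0.11) and p21 (CDKN1A, 0.15 ± 0.14) were not called. The p16 gene CDKN2A was listed at 34, 26 and 18 CP20M with DMSO and 8, 19 and 10 with palbociclib, too low to be tested, and CDKN2B at 0 in all 6 libraries.

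Genes of replication-dependent histones, which are made in S phase, fell almost throughout. Of 52 tested, 49 fell, with a median of -2.51, and 6 of the 10 largest falls of the line were histone genes. HIST1H3G (H3C8, histone H3) went from 1372, 946 and 2960 CP20M to 341, 30 and 180 (-3.51 ± 0.47), HIST1H1B (H1-5, linker histone) from 2168, 1667 and 4777 to 498, 71 and 298, and HIST1H3I (H3C11) from 793, 1058 and 2024 to 176, 72 and 109. Pair 2 reached the lowest level in each. The differences of these 6 from the other lines ran from -0.93 for HIST1H3I to -0.19 for HIST1H1B and were not called, and the H28 DMSO libraries held 5 of the 6 at 13 CP20M or less. Of 60 histone genes tested in the difference 7 were higher and 1 lower, where 8.85% and 5.84% of all genes were. The higher count was thus near the share of all genes. The genes are near-identical in sequence, so reads may be split among them. Their messages lack a poly(A) tail, and whether poly(A) RNA was selected is not given in the sources used here.

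**Figure D2:**
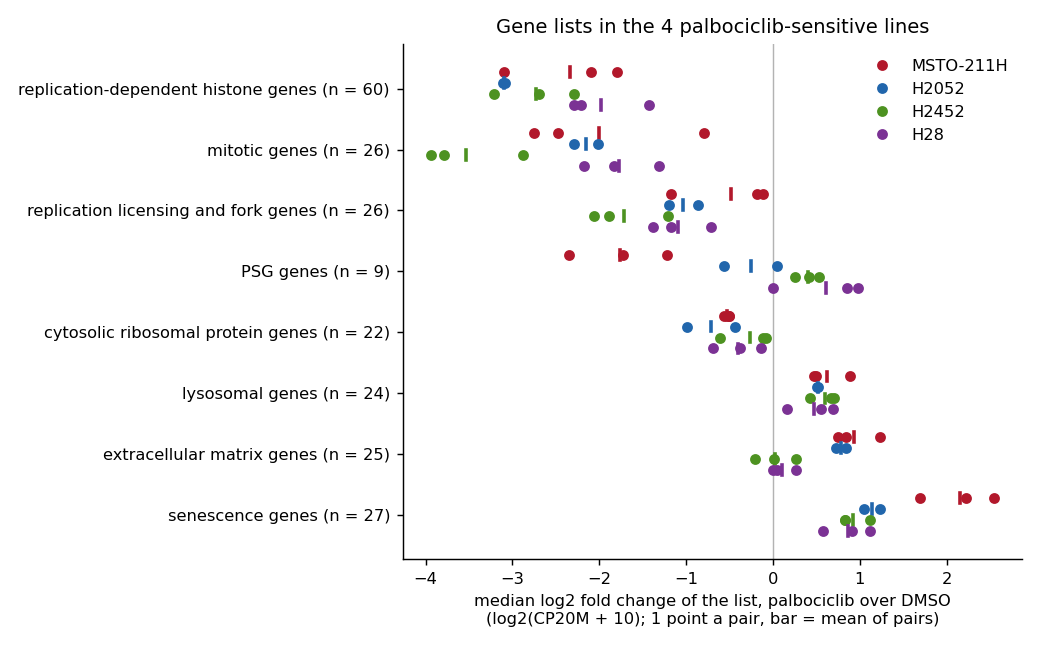
Median log2 fold change (palbociclib over DMSO, CP20M + 10) of 8 gene lists in each pair of the 4 sensitive lines, 1 point a pair and a bar for the mean of the pairs. Over the genes of the difference the 3 MSTO-211H points lie below those of the other lines for the PSG genes (-2.34 to -1.22) and above them for the senescence genes (1.69 to 2.55), while the mitotic genes spread from -2.76 to -0.79.

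A group that fell in MSTO-211H and differed from the other lines was the pregnancy-specific glycoprotein (PSG) family. PSGs are secreted proteins of the immunoglobulin superfamily, related to the carcinoembryonic antigen, and are made mainly by the placenta. Their genes lie side by side on the minus strand of chromosome 19, from PSG3 (chr19:42721638-42740481) to PSG9 (chr19:43211791-43269530, GENCODE 44, GRCh38). Of 8 tested, 7 fell in MSTO-211H (median -1.86), and all 9 that entered the difference were lower than in the other lines, 5 of them past the FDR against each line, where 5.84% and 1.07% of all genes were. The counts of 7 and 9 stayed the same with median-of-ratios scaling and on leaving out any 1 of the MSTO-211H pairs. Several contrasts behind the counts of the difference are with lines that hold the gene at low levels, as given below.

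PSG1 went from 2480, 1165 and 991 CP20M to 92, 59 and 55, the largest fall called in the line, -4.21 ± 0.17 (adjusted p = 0.000981). PSG5 went from 1585, 2828 and 1228 to 102, 172 and 177 (-3.51 ± 0.25), and PSG7 from 908, 406 and 226 to 88, 88 and 56 (-2.38 ± 0.29). No palbociclib library overlapped a DMSO library for these 3 genes. PSG8 (-1.94), PSG3 (-1.78) and PSG11 (-1.57) also fell. PSG4 fell least, from 3773, 2743 and 2742 CP20M to 1528, 1507 and 1530, still without overlap, and PSG9, at the far end of the cluster, was not called (-0.36 ± 0.21).

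H2452 held PSG1 and PSG5 at higher levels than MSTO-211H, and there they did not go down. PSG1 ranged from 9047 to 12890 CP20M in its DMSO libraries and from 11155 to 17224 with palbociclib, and PSG5 from 6175 to 7574 and from 7334 to 11265. In H2052, PSG5 stood at 3709 and 2789 with DMSO and at 3466 and 2857 with palbociclib. The difference was -4.37 ± 0.22 for PSG1 and -3.72 ± 0.29 for PSG5. In H28 every PSG1 value was 35 or less and every PSG5 value 45 or less. PSG7 was at 41 or less in H2052 and 16 or less in H28, and PSG1 reached 160 in H2052. The contrasts with these lines thus rest on low counts.

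**Figure D3:**
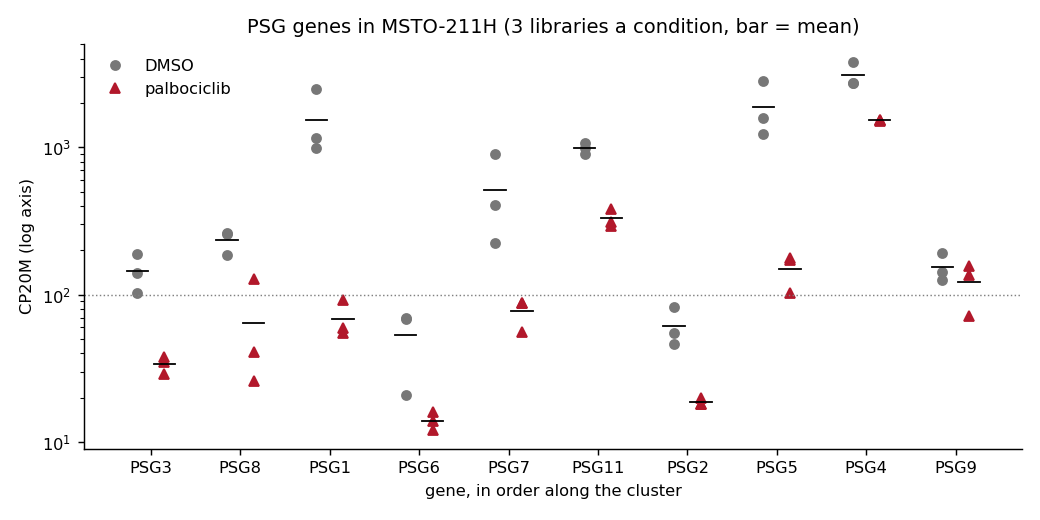
CP20M of 10 PSG genes in the 6 MSTO-211H libraries (log axis), in their order along the cluster, with circles for DMSO, triangles for palbociclib and bars for the mean of 3. The dotted line marks the test's minimum of 100. PSG1 drops from 991 or more to 92 or less, PSG4 from 2742 or more to 1530 or less, and the PSG9 conditions overlap.

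PSG promoters are shown because 7 of the 8 genes tested fell, with no cell cycle element in the windows matched. RefSeq windows were matched for PSG3, PSG4 and PSG5, and the longest run that all 3 share, 54 bases, is in capitals.
PSG3 (chr19:42740432-42740731, minus strand): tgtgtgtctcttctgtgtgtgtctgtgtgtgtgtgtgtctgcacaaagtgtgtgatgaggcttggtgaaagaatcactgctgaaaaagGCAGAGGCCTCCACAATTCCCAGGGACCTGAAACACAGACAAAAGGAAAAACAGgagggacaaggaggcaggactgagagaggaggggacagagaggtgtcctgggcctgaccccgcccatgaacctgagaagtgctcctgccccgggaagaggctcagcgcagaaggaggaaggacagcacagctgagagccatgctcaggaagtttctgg
PSG4 (chr19:43205589-43205888, minus strand): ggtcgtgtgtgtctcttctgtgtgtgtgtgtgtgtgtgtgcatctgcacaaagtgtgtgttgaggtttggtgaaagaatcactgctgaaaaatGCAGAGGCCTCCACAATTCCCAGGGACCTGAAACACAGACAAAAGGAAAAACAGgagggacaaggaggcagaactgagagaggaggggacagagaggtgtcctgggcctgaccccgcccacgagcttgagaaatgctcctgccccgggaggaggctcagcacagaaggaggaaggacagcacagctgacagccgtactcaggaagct
PSG5 (chr19:43186487-43186786, minus strand): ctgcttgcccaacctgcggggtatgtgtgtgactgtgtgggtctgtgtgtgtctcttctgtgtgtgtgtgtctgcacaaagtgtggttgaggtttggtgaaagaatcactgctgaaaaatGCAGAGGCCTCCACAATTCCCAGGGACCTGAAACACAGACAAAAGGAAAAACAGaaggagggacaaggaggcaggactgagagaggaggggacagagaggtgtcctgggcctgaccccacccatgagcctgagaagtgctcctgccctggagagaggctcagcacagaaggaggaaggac
None of the 3 windows held the E2F, CHR or CCAAT letters. PSG transcripts are near-identical too, so the values of single members are uncertain, since reads that match several of them could be split or dropped in the counting. PSG genes with no window matched were PSG1, PSG2, PSG6, PSG7, PSG8, PSG9 and PSG11.

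Across all genes, the response of MSTO-211H was compared with those of the other lines in a joint fit of 22 libraries. Of 16759 genes, 1484 were higher in the difference (8.85%) and 978 lower (5.84%), and without the pair as a block these counts were 873 and 467. Of the higher genes 876 rose in MSTO-211H in this fit, 548 were not called there and 60 fell. Of the lower genes 655 fell, 322 were not called and 1 rose. Past the FDR against each line were 483 higher genes (2.88%) and 180 lower genes (1.07%). The 3 contrasts share the MSTO-211H libraries and so are not independent of each other. Line by line, 1226 genes were higher (7.32%) and 369 lower (2.2%) against H2052, 1774 (10.6%) and 1392 (8.31%) against H2452, and 1469 (8.77%) and 1766 (10.5%) against H28.

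**Figure D4:**
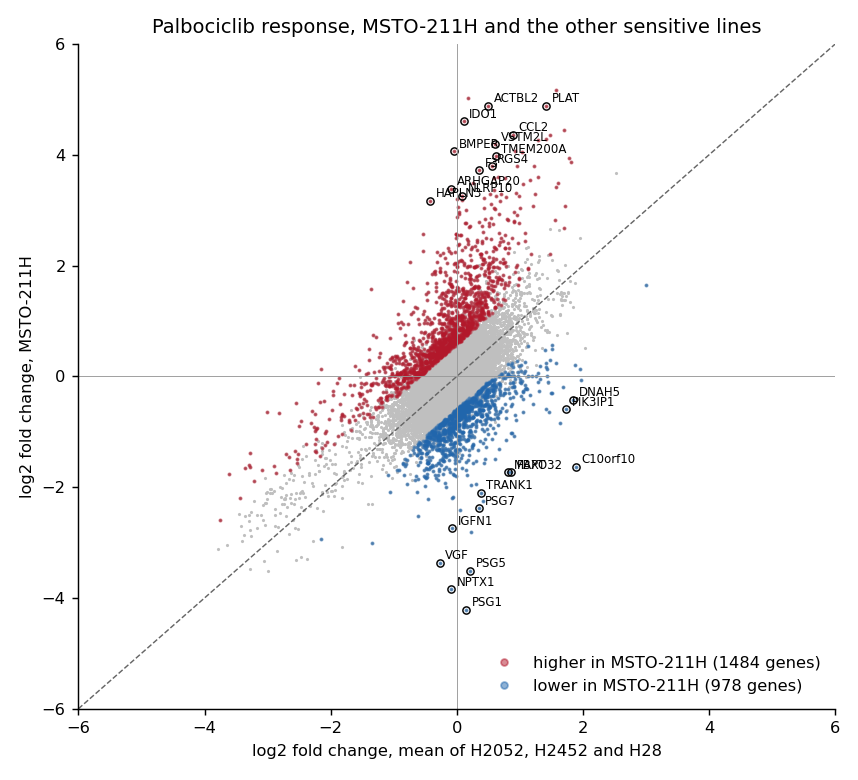
Log2 fold change in MSTO-211H (vertical) against the mean of H2052, H2452 and H28 (horizontal) for 16759 genes, the dashed diagonal marking equal response. Red points are the 1484 genes higher in the difference and blue points the 978 lower, and circled names are the 12 genes of largest difference on each side that passed the FDR against each line.

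Among genes past the FDR against each line, the 12 of largest positive difference were IDO1, ACTBL2, BMPER, HAPLN3, VSTM2L, ARHGAP20, CCL2, PLAT, F3, TMEM200A, RGS4 and NLRP10, and all 12 rose in MSTO-211H. The 12 of largest negative difference were PSG1, NPTX1, PSG5, C10orf10, VGF, PSG7, IGFN1, FBXO32, MAPT, TRANK1, PIK3IP1 and DNAH5, of which the last pair and C10orf10 were not called in MSTO-211H. The 24 were picked for this difference, so their fold changes are a description. In the plot by pair the lowest MSTO-211H pair among the higher genes was 2.48 and the highest pair of any other line 2.46. Of the 24 genes, 9 reached 100 CP20M in all 3 other lines, and 3 (IDO1, HAPLN3 and NPTX1) in none. Where a line hardly holds a gene, the contrast with it mostly repeats the change in MSTO-211H.

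IDO1, the tryptophan-degrading enzyme known to restrain T cells, went from 6, 3 and 17 CP20M to 281, 217 and 1214 (4.60 ± 0.34), and was at 4 or less in all 16 other libraries. The actin-like gene ACTBL2 went from 2, 2 and 4 to 215, 237 and 919. HAPLN3, which links hyaluronan to proteoglycans, went from 90, 17 and 35 to 547, 265 and 573. None of these overlapped between conditions. BMPER, a secreted binder of bone morphogenetic proteins, rose from 21, 14 and 105 CP20M to 1235, 292 and 1045, while in H2452 it went from 310, 821 and 362 to 83, 446 and 133. In H2052 BMPER went from 400 and 339 to 684 and 883, a rise of 1.06 in the joint fit, and in H28 it was at 5 or less. RGS4, which shortens signalling by G proteins, rose from 838, 353 and 376 to 10399, 3024 and 9976.

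Of 12 tested genes of the plasminogen system and matrix proteases, 5 rose, with a median of 1.23, where 9.29% of all genes rose. Over the 14 genes of the difference the list's median was 0.85 in MSTO-211H, beside 0.79, 0.80 and 0.42 in H2052, H2452 and H28. PLAT, tissue plasminogen activator, went from 345, 649 and 2946 CP20M to 51075, 11643 and 30173 (4.89 ± 0.68, adjusted p = 0.00826). PLAT also rose in the other lines, by 1.45, 1.52 and 1.29 in H2052, H2452 and H28, and H2052 held 19000 and 24024 with DMSO, a range that the palbociclib libraries of MSTO-211H span. F3, tissue factor, which starts clotting, went from 221, 322 and 930 to 5562, 4309 and 6843 (3.72 ± 0.31), and its difference was 3.37 ± 0.41. Over both conditions F3 reached 5479 in H2052, 8347 in H2452 and 319 in H28. TIMP3, an inhibitor of matrix metalloproteases, rose by 2.82 ± 0.19.

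**Figure D5:**
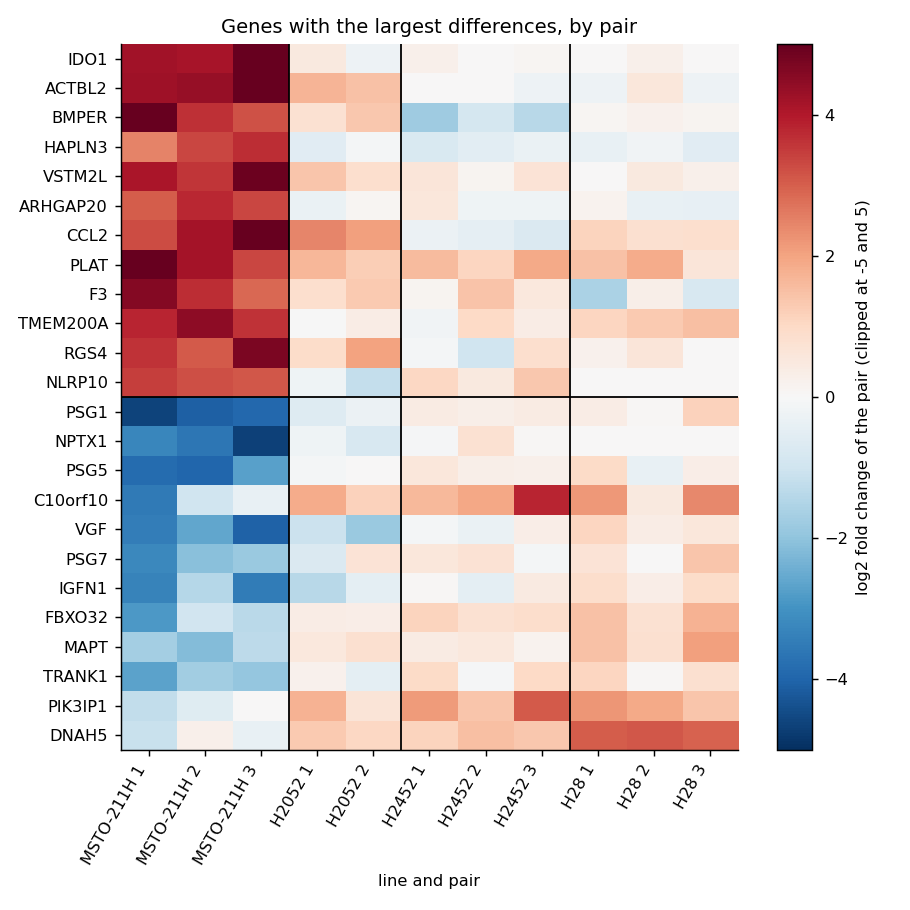
Log2 fold change in each of the 11 pairs for the 24 genes with the largest difference, 12 higher and 12 lower, in columns grouped by line (red higher, blue lower with palbociclib, colours clipped at 5). The MSTO-211H pairs are 2.48 or more for the higher genes and 0.24 or less for the lower, and the rows of C10orf10, PIK3IP1 and DNAH5 show rises in the other lines.

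The 10 largest rises in MSTO-211H by itself also held OLR1, TNFSF15, TMEM178B, LIPH, SERPING1 and LINC02154. OLR1, a scavenger receptor for oxidised lipoprotein, had the largest, from 17, 23 and 49 CP20M to 1643, 546 and 2694 (5.18 ± 0.36), a rise it shared with H2052 (4.43) but not with H2452 (0.36) or H28 (-0.04). TNFSF15, a ligand of the TNF family, went from 0, 2 and 3 to 2516, 13 and 905, so that pair 2 stayed near its DMSO value (5.02 ± 1.24, adjusted p = 0.0301). The call on TNFSF15 was lost without the pair as a block. SERPING1, the inhibitor of the complement protease C1, rose from 4, 9 and 4 CP20M to 134, 352 and 523. The lipase LIPH rose from 29, 33 and 48 to 836, 876 and 1124 (4.36 ± 0.15), the smallest SE of the 10, and its fold change in H2052 was 2.81.

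NPTX1 and VGF led the falls outside the PSG and histone genes. NPTX1, neuronal pentraxin 1, a secreted protein of synapses, went from 5475, 7149 and 8167 CP20M to 565, 572 and 316 (-3.84 ± 0.26, adjusted p = 0.00304). In the 16 other libraries it was at 57 or less. VGF, a secreted neuropeptide precursor, went from 890, 368 and 798 to 71, 53 and 39 (-3.37 ± 0.29). Neither gene's conditions overlapped. MAPT, the microtubule protein tau, fell from 192, 362 and 149 CP20M to 52, 72 and 54 (-1.73 ± 0.24), while in H28 it went from 510, 509 and 287 to 1439, 890 and 1212 and its fold change was 0.65 in H2052 and 0.37 in H2452. IGFN1, a muscle protein of the immunoglobulin superfamily, fell from 48595, 9975 and 10704 to 4813, 3720 and 948, and in H28 went from 14374, 20770 and 13948 to 26545, 25798 and 26572, while its fold change in H2052 was -0.94.

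FBXO32, C10orf10, PIK3IP1 and DNAH5 had a positive fold change in each of the other lines. FBXO32, a ubiquitin ligase subunit of muscle wasting, fell in MSTO-211H from 5329, 2193 and 1533 CP20M to 713, 1114 and 603 (-1.73 ± 0.35), and its fold change was 0.36, 0.92 and 1.31 in H2052, H2452 and H28. C10orf10 (DEPP1) stood at 254, 98 and 50 with DMSO and 13, 44 and 36 with palbociclib in MSTO-211H (-1.63 ± 0.61, not called), while its fold change elsewhere was 1.52, 2.45 and 1.68. PIK3IP1, an inhibitor of phosphoinositide 3-kinase, stood at 364, 309 and 161 and then 150, 202 and 164 (-0.60 ± 0.25, not called), beside 1.20, 2.18 and 1.83. The insulin receptor INSR fell from 1134, 1059 and 1034 to 520, 699 and 502 (-0.91 ± 0.14), with a difference of -1.22 ± 0.22. Of 9 tested genes of the IGF system, IGFBP3 (3.87), IGFBP4 (2.07) and IGF2 (1.70) rose and the receptor IGF1R (-0.68) fell, a call lost with median-of-ratios or upper-quartile scaling. TRANK1 fell from 767, 494 and 548 to 113, 141 and 138, and the ciliary dynein DNAH5, not called in MSTO-211H (-0.43 ± 0.27), had fold changes of 1.17, 1.33 and 3.03 elsewhere.

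The senescence list, genes of the secretory and surface phenotype of arrested cells, rose further in MSTO-211H than in the other lines. It was drawn up by the study on lines that include this one, so its direction is not independent evidence. Of 25 tested, 21 rose (median 2.10), and the medians of the pairs ran from 1.69 to 2.67. Over the 27 genes of the difference the list's median fold change was 1.21 in H2052, 0.90 in H2452 and 0.91 in H28. In the difference 10 of 27 were higher, among them CCL2, CCL5, CD82, DPP4, FN1, IFIT2, IGFBP3, L1CAM and PLAT, and 4 without the pair as a block. L1CAM, a neural adhesion molecule, rose from 47, 42 and 87 CP20M to 920, 622 and 1303 (3.80 ± 0.16, adjusted p = 0.000981), against fold changes of 0.77 to 1.27 elsewhere. The tetraspanin CD82 rose from 18, 15 and 26 to 420, 84 and 567. Both genes started below every DMSO library of the other lines.

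The secreted members varied in how far they were particular to MSTO-211H. The chemokine CCL2, which attracts monocytes, rose from 5, 13 and 5 CP20M to 135, 404 and 746 (4.37 ± 0.46), whereas in H2452 it went from 441, 1564 and 478 to 363, 1133 and 284. CCL2 also rose in H2052 (2.25) and H28 (0.91) in the joint fit. IGFBP3, a carrier of insulin-like growth factors, rose from 736, 1805 and 1004 to 17669, 8559 and 28579 (3.87 ± 0.49), with 2.48 in H2052, 3.12 in H2452 and -0.16 in H28. Complement C3 rose by 3.66 ± 0.47 and was not called in the difference (1.14 ± 0.49). Interleukin 6 (IL6) rose from 6, 14 and 11 to 19, 209 and 150, with pair 1 far below the others. CXCL8 was not called (1.07).

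Extracellular matrix genes rose, 14 of 23 tested with a median of 0.93, where 9.29% of all genes rose. In the difference 9 of 25 were higher, where 8.85% of all genes were. That count was 1 without the pair as a block and 5 without pair 3. The rise was shared with H2052, where the list's median was 0.78, beside -0.09 in H2452 and 0.16 in H28. The medians of the H2052 pairs (0.84 and 0.72) overlapped those of MSTO-211H (0.74, 0.84 and 1.23). LOX, which crosslinks collagen, rose from 1577, 1318 and 2232 CP20M to 40026, 9627 and 21366 (3.59 ± 0.33). Collagen III (COL3A1) rose from 3906, 2101 and 1727 to 9794, 10410 and 15530 (2.26 ± 0.32), and fibrillin 1 (FBN1) from 522, 140 and 82 to 1713, 617 and 1456. COL3A1 and LOX were past the FDR against each line. Collagen V (COL5A1) rose by 1.95 ± 0.26, and also in H2052 (1.40 in the joint fit), while its fold change was -2.26 in H28 and 0.06 in H2452. Of 5 markers of fibroblasts tested, COL3A1, POSTN, LUM and DCN rose. The marker list and the matrix list share COL3A1, POSTN and COL1A1, so that they are not independent, whereas LUM (2.26) and DCN (1.98) are not in the matrix list. The summed level of the 6 markers was 2009 to 5356 CP20M with DMSO and 10467 to 17111 with palbociclib, most of it from COL3A1, and PDGFRA stayed under 100. Leukocyte markers summed to 943 to 1224 and 588 to 1224, most of it from CD68, and lung epithelial markers to 11 or less. Endothelial markers summed to 61 to 142 with DMSO and 129 to 336 with palbociclib. The endothelial marker KDR rose (1.19), a call lost without the pair as a block, and was higher in the difference. Whether fibroblast-like cells have a part in the matrix rise was not tested. In a culture, more RNA per cell and more cells of a kind cannot be told apart.

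Of 18 tested genes of the TGF-beta pathway 5 rose, BMP4, LTBP1, LTBP2, TGFB2 and TGFBR2, where 9.29% of all genes did, and 1, SMAD4 (-0.94), fell. In the difference 7 of 21 were higher, where 8.85% of all genes were, and 3 without the pair as a block. Over these 21 the list's median was 0.26 in MSTO-211H, beside 0.31 in H2052, -0.08 in H2452 and -0.38 in H28. The ligands TGFB1 (-0.31) and INHBA (0.54) were not called. BMP4 rose from 22, 29 and 37 CP20M to 168, 418 and 394 (3.01 ± 0.26), and LTBP1, which stores TGF-beta in the matrix, from 6, 5 and 6 to 124, 94 and 145 (3.05 ± 0.33). The receptor TGFBR2 rose from 982, 1026 and 1377 to 6248, 2359 and 6708 (2.04 ± 0.27). BMP4, LTBP1 and TGFB2 were past the FDR against each line. The targets ID1 (-0.33), ID3 (0.13) and SMAD7 (0.19) were not called in MSTO-211H. In H28 LTBP1 ranged from 66 to 120 with DMSO, so the palbociclib level of MSTO-211H lay near that of H28 with the solvent.

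Among the receptor tyrosine kinases and the feedback genes of ERK signalling, ROR1 and DUSP4 stood apart. ROR1, a receptor of Wnt5a, rose from 70, 53 and 81 CP20M to 563, 453 and 814 (2.97 ± 0.16), while its fold change in the other lines was between -0.14 and 0.30. Its difference of 2.94 ± 0.20 was past the FDR against each line (adjusted p = 1.19e-05). DUSP4, a phosphatase that switches off ERK, rose from 77, 26 and 118 to 570, 294 and 742 (2.79 ± 0.18), with fold changes of 0.34 in H2052, -0.005 in H2452 and 0.73 in H28. Of 15 ERK feedback genes 5 rose in MSTO-211H, DUSP4, DUSP6, SPRY4, ETV5 and PHLDA1. DUSP6 went from 187, 184 and 556 to 2392, 402 and 1687, with overlap between conditions.

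The simple keratins KRT8 and KRT18, which pair in the filaments of mesothelial and epithelial cells, rose in MSTO-211H and not in H2452 or H28. KRT8 went from 29735, 25085 and 35008 CP20M to 73987, 81066 and 91185 (1.46 ± 0.14), and its fold change was 0.61 in H2052, -0.52 in H2452 and -0.26 in H28. KRT18 went from 14721, 16176 and 20496 to 36455, 44308 and 47685 (1.33 ± 0.12). In H2452 KRT18 went from 12766, 18914 and 13018 to 8894, 13560 and 6292, and its fold change in H2052 was 0.62. The difference was 1.52 ± 0.16 for KRT8, past the FDR against each line, and 1.37 ± 0.18 for KRT18.

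The Hippo pathway, in which the kinases LATS1 and LATS2 and the scaffold merlin (NF2) hold back the coactivators YAP and TAZ, is often mutated in mesothelioma. Of 22 genes of the pathway, regulators and targets, 9 rose and 4 fell in MSTO-211H, where 9.29% of all genes rose and 13.8% fell. In the difference 7 were higher, F3, ANKRD1, LATS2, NF2, AMOTL1, TEAD1 and TEAD4, where 8.85% of all genes were. The list's median was 0.12 in MSTO-211H, beside 0.13 in H2052, -0.17 in H2452 and -0.06 in H28. The target ANKRD1 rose from 622, 286 and 679 CP20M to 6867, 2619 and 4335 (3.08 ± 0.17). The target CYR61 (-0.71) and the receptor AXL (-0.90) fell, and the target CTGF (1.45) rose. With median-of-ratios or upper-quartile scaling 10 genes of the list rose and 2 fell, 5 were higher in the difference, and CYR61 lost its call, while the call on CTGF was lost without the pair as a block. LATS2 rose from 1401, 1335 and 1309 to 3809, 2475 and 3233 (1.21 ± 0.14), with no overlap, and is listed at 0 in all 4 H2052 libraries. NF2 rose from 4059, 4022 and 4715 to 9378, 7392 and 8261 (0.96 ± 0.13).

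Interferon-stimulated genes moved both ways in MSTO-211H. Of 29 tested, 8 rose and 4 fell, with a median of 0.21, where 9.29% of all genes rose and 13.8% fell. The falls were thus near the share of all genes. Over the 38 genes of the difference the list's median was 0.21 in MSTO-211H, beside 0.16, 0.63 and 0.30 in H2052, H2452 and H28. IFIT2 rose from 747, 478 and 757 CP20M to 7218, 5695 and 9808 (3.49 ± 0.13, adjusted p = 0.000981), more than in each of the other lines (2.17, 1.51 and 1.11). IFI6 (2.12), OAS2 (1.99), SAMD9L (1.71), ISG15 (1.28), IFIT3 (1.10) and IFIT1 (0.90) were among the others that rose. EPSTI1 (-1.21), HERC5 (-1.10), IFIH1 (-0.64) and IFI44 (-0.60) fell, and only 1 of the list stayed lower with median-of-ratios scaling. Of 16 genes of MHC class I presentation, 4 rose, among them HLA-B (1.07) and CALR (0.62).

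In MSTO-211H 9.29% of all genes tested rose and 13.8% fell. Of 24 lysosomal genes 12 rose and 1 fell, with a median of 0.61, beside 0.51, 0.59 and 0.46 in H2052, H2452 and H28. Cytosolic ribosomal protein genes had a median of -0.53 and 8 of 22 fell (2 with median-of-ratios scaling and 1 without the pair as a block), with a median difference of -0.02. With median-of-ratios scaling 5 of 24 p53 targets rose and 3 fell, where 1999 and 1201 of all 14403 genes did. With the deposited totals 3 p53 targets rose, near the share of all genes, and 6 fell. The list's median was -0.0004, beside -0.84, -0.01 and 0.32 in H2052, H2452 and H28. The falls included BBC3 (PUMA, which promotes apoptosis), from 643, 1084 and 825 CP20M to 161, 309 and 249 (-1.80 ± 0.13), and GDF15, from 3891, 5143 and 5405 to 2920, 2253 and 2964 (-0.82 ± 0.16), the latter not called with median-of-ratios scaling. Both were also lower in the difference, BBC3 by -1.16 and GDF15 by -1.28, although both fell in H2052 (-1.85 and -1.34). The study's proliferation list fell in 15 of 18 genes. Its median was -1.67, beside -2.28, -3.64 and -1.99 in H2052, H2452 and H28, and 7 of the 18 were higher in the difference (4 without the pair as a block), where 8.85% of all genes were. The study's DNA repair list fell in 5 of 13. Both of those lists were drawn up on lines that include these.

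In the joint fit 3 genes were called in MSTO-211H in the opposite direction to all 3 other lines, where 10.8% of genes rose and 15.4% fell in MSTO-211H, 5.88% and 20.5% in H2052, 7.18% and 11.8% in H2452, and 8.34% and 9.99% in H28. OLFML2A, a secreted matrix protein, rose in MSTO-211H from 93, 15 and 75 CP20M to 190, 132 and 193 (1.57 ± 0.34) and fell by 2.12 in H2052, by 0.91 in H2452 and by 1.05 in H28. CA12, a carbonic anhydrase at the cell surface, was at 2009, 1460 and 904 with DMSO and 824, 1246 and 670 with palbociclib in MSTO-211H (-0.64), with overlap, and rose by 0.94, 1.30 and 0.90 in H2052, H2452 and H28. CA12 was not called in the fit of MSTO-211H by itself. The transcript AC022613.1 rose by 0.70 in the joint fit, at 22 to 36 CP20M with DMSO and 33 to 87 with palbociclib, which overlap. It lay under the minimum of 100 in all MSTO-211H libraries.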

How the data were processed

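Total RNA of the cell lines was sequenced from directional paired-end libraries. Per the labels and the methods, the authors trimmed reads with Trimmomatic 0.36, aligned them to GRCh38 with STAR 2.5.3, counted them per Ensembl 90 gene with HTSeq 0.9.1 and scaled the counts to 20000000 per library. The deposited values are these CP20M, held here as a score because they were rounded up to whole numbers, so no count model was fitted. Of 58302 genes, those with 100 CP20M in at least 1 library of a fit were tested on log2(CP20M + 10) with limma 3.58.1 (R 4.3.3, eBayes with trend), with the replicate number as a block, as in the study's methods. A gene was called at a fold change over 1.5 and a Benjamini-Hochberg FDR under 0.05. The MSTO-211H fit used 6 libraries (2 residual and 3.99 prior degrees of freedom). The difference came from 1 fit of 22 libraries of the 4 sensitive lines, testing MSTO-211H minus the mean of H2052, H2452 and H28, and minus each line. Pairing was checked on the deviations from group means, whose correlations were 0.21, 0.51 and 0.24 for the 3 MSTO-211H pairs, although palbociclib 1 correlated at 0.29 with DMSO 3.

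The text names members of gene lists, the 10 largest rises and 10 largest falls among called MSTO-211H genes whose pairs all move alike and whose conditions do not overlap, and the 12 largest differences each way among genes past the FDR against each line. A gene given outside these is named as such or serves to describe a list. Some members of lists are not reported here by name. The lists and members were chosen with earlier results of these data known. Promoters came from RefSeq (35116 windows). The test was tried on simulated data for palbociclib against DMSO in MSTO-211H (14038 genes, 100 of 100 genes changed 4-fold and 95 of 100 changed 2-fold recovered, 11 called wrongly) and for the difference from the other lines (16546 genes, 100 of 100 and 69 of 100 recovered, 8 called wrongly). These rates belong to the spread that was simulated. Whether they hold at the spread between the real pairs was not tested, so they do not give the power or the error rate on these data. Coordinates of genes are those of GENCODE 44 on GRCh38. Alternatives were no block, other scalings, pseudocounts, filters, variance models and leaving out each pair or line.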

Additional observations from a re-analysis of the deposited data

Results flagged for a closer look

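The response to palbociclib differed between MSTO-211H and the mean of H2052, H2452 and H28, as tested by limma, for 1484 genes that were higher and 978 that were lower. The genes given here passed the FDR against each of the 3 lines singly as well, and the values are differences of log2 fold changes. Where a line hardly holds a gene, its fold change cannot move far, and the contrast with it mostly repeats the change in MSTO-211H. Among the 24 genes of largest difference, only 9 reached 100 CP20M in all 3 other lines. IDO1 reached 4, 3 and 2 in H2052, H2452 and H28, and LATS2 was not detected in H2052. No explanation was weighed for any of them.

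The differences that were positive and largest were those of IDO1 (4.5), ACTBL2 (4.38), BMPER (4.1), HAPLN3 (3.59), VSTM2L (3.58), ARHGAP20 (3.47), CCL2 (3.47), PLAT (3.47), F3 (3.37), TMEM200A (3.35), RGS4 (3.24) and NLRP10 (3.18). In ARHGAP20 the levels went from 19, 14 and 20 CP20M to 227, 319 and 294 in MSTO-211H, while H2052 held 585 and 507 with DMSO and 469 and 546 with palbociclib. The inflammasome regulator NLRP10 went from 21, 21 and 37 to 332, 279 and 394 and stood at 28 or less in H2452 and H28. In H2052 it reached 615, above the palbociclib libraries of MSTO-211H. VSTM2L went from 13, 6 and 11 to 375, 183 and 623, and TMEM200A from 79, 11 and 106 to 1234, 457 and 1425. Over both conditions VSTM2L reached 352 in H2052 and 482 in H2452, and TMEM200A reached 1062 in H2052.

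The negative differences were those of PSG1 (-4.37), NPTX1 (-3.75), PSG5 (-3.72), C10orf10 (-3.52), VGF (-3.1), PSG7 (-2.74), IGFN1 (-2.67), FBXO32 (-2.59), MAPT (-2.55), TRANK1 (-2.49), PIK3IP1 (-2.33), DNAH5 (-2.27), PSG11 (-2.0), PSG2 (-1.74), CA12 (-1.69) and INSR (-1.22). PSG2 was under 100 CP20M in MSTO-211H (83, 55 and 46 with DMSO, 20, 18 and 18 with palbociclib).

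Among the other genes named in the text, the difference was 2.94 for ROR1, 2.93 for OLFML2A, 2.89 for LIPH, 2.88 for SERPING1, 2.87 for BMP4, 2.84 for L1CAM, 2.82 for LOX, 2.8 for COL3A1, 2.76 for CD82, 2.75 for TMEM178B and 2.62 for LTBP1. It was 2.43 for DUSP4, 2.37 for E2F2, 2.01 for TIMP3, 1.9 for IFIT2, 1.76 for AC022613.1, 1.52 for KRT8, 1.37 for CCND3, 1.35 for TGFB2, 1.17 for MCM6 and 1.1 for LATS2. TGFB2 stood at 10, 6 and 23 CP20M with DMSO and 40, 42 and 112 with palbociclib in MSTO-211H, so its value rests on low levels.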

How the results depend on the processing

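Without a filter 493 genes rose and 501 fell in MSTO-211H, with upper-quartile scaling 2086 and 1158, and 1201 fell with median-of-ratios scaling; leaving out each pair in turn gave 703 to 1584 rises and 840 to 1860 falls. Without the replicate block, 873 genes were higher and 467 lower in the difference, and by line 329 and 75 (H2052), 943 and 612 (H2452) and 761 and 867 (H28). The same unblocked fit gave 4 replication genes lower in MSTO-211H, and in the difference 7 replication, 0 mitotic, 4 senescence and 1 matrix genes higher. It also gave 1 ribosomal protein gene and 2 MYC and ribosome biogenesis genes lower in MSTO-211H, and 3 TGF-beta, 4 proliferation, 1 plasminogen, 1 IGF and 1 adhesion genes higher in the difference. With a single coefficient for the 8 other pairs 982 and 577 genes differed, with genes at 100 CP20M in each of the 4 lines 887 and 530, and with H2052 or H2452 left out 1489 or 634 were lower. Against H2052, median-of-ratios scaling gave 711 and 611. Leave-one-out ranges for the difference were 1181 to 1563 higher and 711 to 1236 lower, and by line 932 to 1427 and 298 to 466 (H2052), 1516 to 1838 and 1100 to 1652 (H2452) and 1172 to 1598 and 1429 to 2122 (H28). For lists they were 8 to 25 mitotic and 2 to 12 replication genes lower in MSTO-211H, and 0 to 3 mitotic, 8 to 15 replication, 8 to 14 senescence and 5 to 12 matrix genes higher in the difference. Median-of-ratios scaling left 6 replication genes lower. No named gene changed direction in any alternative run. TNFSF15 lost its call without the block, with the filter over 33 libraries and without a filter, LINC02154 with both filters, PLAT and HIST1H3G without a filter, and PLAT and IGFN1 in the difference without the block. Among members of lists, MCM7, MCM10, CDC45, RRM2, CDC20, E2F7, CTGF, IL6, IL18, CCL5, CFI, CD9, IFIT1, IFI44, CALR, MXI1, NPM1, TGFB2 and DUSP6 lost their call in MSTO-211H without the block, and CD82, FN1, IGFBP3, CCL5, MCM4, FEN1, POLE, GINS3, E2F8, RBL2, INSR, GDF15, SOD2, C1R, MCAM, COL3A1, CA12, TGFB2, ANKRD1, TEAD4 and PSG9 theirs in the difference. With median-of-ratios scaling MCM7, IFIH1, EPSTI1, IFI44, IGF1R, TWIST1, OCLN, CYR61, GDF15, NPM1 and SREBF2 lost theirs in MSTO-211H, and SOD2, ANKRD1 and TEAD4 in the difference. The tests of lists and of single lines without the block or a pair were chosen after seeing the data. Why these values moved was not tested, except that fewer pairs and more genes tested lower the power by construction. Genes under 100 CP20M in every library of a fit were not tested, since 3 pairs at this depth give them little precision.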

Other observations

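Gene lists not described above were tested in the same way, and their members are given as values. Of 11 adhesion molecules tested in MSTO-211H 5 rose, L1CAM (3.80), CD82 (3.28), ICAM1 (1.73), CD9 (1.17) and CD44 (0.63), and the melanoma adhesion molecule MCAM, flat in MSTO-211H (-0.03), was higher in the difference (1.25). Of 13 complement genes 5 rose, among them SERPING1 (4.29), C3 (3.66), CFI (1.80) and CD59 (1.37), while C1R was lower in the difference (-1.93). Among 7 chemokines CCL2 (4.37), CXCL1 (2.76) and CCL5 (2.10) rose, and among 10 cytokines IL6 (2.33) and IL18 (1.63).

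Of 18 genes of glycolysis and hypoxia ADM (1.76), NDRG1 (1.51), SLC2A3 (1.03) and HK2 (0.99) rose. Some lists held shares near those of all genes tested in MSTO-211H, of which 9.29% rose and 13.8% fell. Of 16 cholesterol synthesis genes 3 fell, INSIG1 (-1.80), FDFT1 (-0.91) and SREBF2 (-0.66), and of 23 genes of MYC and ribosome biogenesis 4 did, FBL (-1.59), RCL1 (-0.97), MXI1 (-0.79) and NPM1 (-0.65). Of 17 NF-kB subunits and feedback genes 2 rose and 1 fell. TNFAIP3 (2.25) and TNIP1 (1.06) rose and REL (-0.83) fell, and SOD2, an antioxidant enzyme known as an NF-kB target, was not called in MSTO-211H (0.19) but was lower in the difference (-1.12), its fold changes elsewhere being 1.47, 1.10 and 1.37. Of 11 EMT genes the tight junction gene CLDN1 (1.88) rose with KRT8 and KRT18, and the tight junction gene OCLN (-0.71) and the mesenchymal factor TWIST1 (-0.73) fell, both calls being lost with median-of-ratios or upper-quartile scaling. Of 13 DNA repair genes BLM (-2.05), EXO1 (-1.87), BRCA2 (-1.77), RPA3 (-1.10) and POLD1 (-0.90) fell.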
